A study of Mus musculus with 2 samples.

Results

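The genes described here are 7 miRNA genes of the Mir9, Mir124a and Mir128 families, each of which encodes its mature miRNA at several places in the genome. They were chosen by name, as the rows Mir9-2, Mir9-3, Mir124a-1, Mir124a-2, Mir124a-3, Mir128-1 and Mir128-2 among 1973 genes with a row in each table, and all 7 were present. Both libraries came from forebrain of B6NCrl mouse embryos at day 16.5, with male and female embryos pooled and no treatment named. Replicate 2 was a pool of 41 embryos, and replicate 1 was a pool whose size the labels do not give. Both belong to 1 group, so there was no comparison between conditions, and each ratio given here compares the libraries only.

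A miRNA gene is transcribed as a long primary RNA that carries a hairpin. The enzymes Drosha and Dicer cut the hairpin to short arms, called 5p and 3p, and an arm bound by Argonaute represses mRNAs that pair with its bases 2 to 8, the seed. In the developing brain, miR-9 acts in neural progenitors and in neurons, where it balances proliferation against differentiation. The 3p arm of miR-124 is a leading miRNA of neurons and represses non-neuronal transcripts such as Ptbp1. The 3p arm of miR-128 is enriched in brain and is known for setting neuronal excitability and for limiting progenitor proliferation.

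RefSeq miRNA sequences on GRCm38.p6 were matched by symbol for 4 of the 7 genes, Mir9-2, Mir9-3, Mir128-1 and Mir128-2. The hairpins are printed to show where the copies are alike and where they differ, since a read was counted only where it mapped to a single locus. Capitals mark the mature arms, and each hairpin reads 5′ to 3′ on the strand of its gene. Mir9-1, the third locus of miR-9, is shown for comparison and is not one of the 7 genes.
Mir9-1: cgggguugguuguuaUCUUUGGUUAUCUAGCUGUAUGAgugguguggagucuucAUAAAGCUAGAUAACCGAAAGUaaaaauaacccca
Mir9-2: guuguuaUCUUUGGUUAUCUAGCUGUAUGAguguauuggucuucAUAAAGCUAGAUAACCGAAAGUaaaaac
Mir9-3: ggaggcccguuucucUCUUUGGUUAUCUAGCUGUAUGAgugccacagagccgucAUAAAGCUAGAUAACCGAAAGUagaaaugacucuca
Mir128-1: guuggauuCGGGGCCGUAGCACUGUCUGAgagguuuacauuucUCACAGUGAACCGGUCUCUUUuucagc
Mir128-2: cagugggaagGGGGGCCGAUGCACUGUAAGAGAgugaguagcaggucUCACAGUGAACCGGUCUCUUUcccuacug

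The mature arms fall into seed groups. Capitals mark bases 2 to 8.
miR-9-5p: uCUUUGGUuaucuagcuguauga
miR-9-3p: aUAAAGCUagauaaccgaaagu
miR-128-3p: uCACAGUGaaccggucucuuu
miR-128-1-5p: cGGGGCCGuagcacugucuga
miR-128-2-5p: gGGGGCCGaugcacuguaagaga
Both arms of miR-9 are the same at Mir9-1, Mir9-2 and Mir9-3, and miR-128-3p is the same at Mir128-1 and Mir128-2. The 5p arms of miR-128 differ between the loci, with 16 of 23 aligned columns alike (69.6%), yet carry the same seed. None of these seeds occurred in a mature miRNA of another gene, among 1738 mature entries of the table. The letters of the miR-128-3p seed stand 1 base further along or back in miRNAs of Mir27a, Mir27b and Mir216a. Mir27b had 599 CPM in replicate 2 and 474 CPM in replicate 1, Mir27a 71.7 and 54.9 CPM, and Mir216a 4.57 and 12.1 CPM, where CPM is counts per 1000000 gene-strand counts of a library.

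The loci lie apart from each other in the genome, by GENCODE M21 on GRCm38. Mir128-1 (ENSMUSG00000065520.1), at chr1:128202361-128202430 on the plus strand, lies in an intron of R3hdm1. Mir128-2 (ENSMUSG00000065441.1), at chr9:112118636-112118711 on the minus strand, lies in an intron of Arpp21, a gene of cAMP-regulated neuronal signalling. Mir9-3 (ENSMUSG00000093238.1), at chr7:79505264-79505353 on the plus strand, as are the 4 genes that follow, lies in an intron of the lincRNA gene Mir9-3hg. Mir9-2 (ENSMUSG00000065424.1), at chr13:83738814-83738885, overlaps an exon of the lincRNA gene C130071C03Rik. Mir124a-1 (ENSMUSG00000065597.1), at chr14:64590657-64590741, and Mir124a-2 (ENSMUSG00000093073.1), at chr3:17795662-17795770, overlap exons of their lincRNA host genes Mir124a-1hg and Mir124-2hg. Mir124a-3 (ENSMUSG00000065454.1) is at chr2:180894040-180894107, and its last bases overlap an exon of the lincRNA gene Gm27032, which starts at 180894105. The 3 intronic genes, Mir128-1, Mir128-2 and Mir9-3, are also the 3 with the most uniquely placed reads below, and the 4 others overlap exons. A link between host position and these counts was not tested. All host genes are on the strand of the miRNA gene.

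Counts on the gene strand summed to 4158686 in replicate 2 and 5060112 in replicate 1, while 4752799 and 5506866 reads mapped to several loci. Reads of that second kind are in no gene's count, nor in the totals that CPM is taken over, so each value below describes reads placed at a single locus and is not the level of the mature miRNA. A count of 0 would allow up to 0.721 CPM in replicate 2 and 0.593 CPM in replicate 1. Neural tissue and other cell types were read from markers listed by name, which do not test for forebrain in particular. All 4 neural markers, Mir137, Mir92b, Mir132 and Mir153, had counts, and their summed level was 17813 CPM in replicate 2 and 20220 CPM in replicate 1. Of the other cells, endothelial Mir126a had 18999 and 16611 CPM, myeloid Mir223 151 and 96.6 CPM, and hepatocyte Mir122 64.9 and 97.8 CPM. The red blood cell genes Mir451a and Mir144 summed to 222 and 281 CPM, and the muscle genes Mir206, Mir208a and Mir208b to 37.0 and 43.9 CPM. Both sums join genes of opposite direction. Mir451a had 152 and 239 CPM but Mir144 70.0 and 42.7 CPM. Mir206 had 25.2 and 18.8 CPM but Mir208b 10.3 and 22.5 CPM.

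The 7 genes spanned more than 3 orders of magnitude in placed reads, and the Mir128 genes held most of these. Together they had 29280 counts in replicate 2 and 31195 in replicate 1, or 0.660% ± 0.0619 of the gene-strand counts (SD, n = 2). The Mir128 genes supplied 88.9% of this sum on average, the Mir9 genes 11.0% and the Mir124a genes 0.109%. Reads mapping to several loci outnumbered the counts of the 7 genes by 162 times in replicate 2 and 177 times in replicate 1. How many of those reads belong to miR-9, miR-124 or miR-128 is not recorded in the tables.

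**Figure D1:**
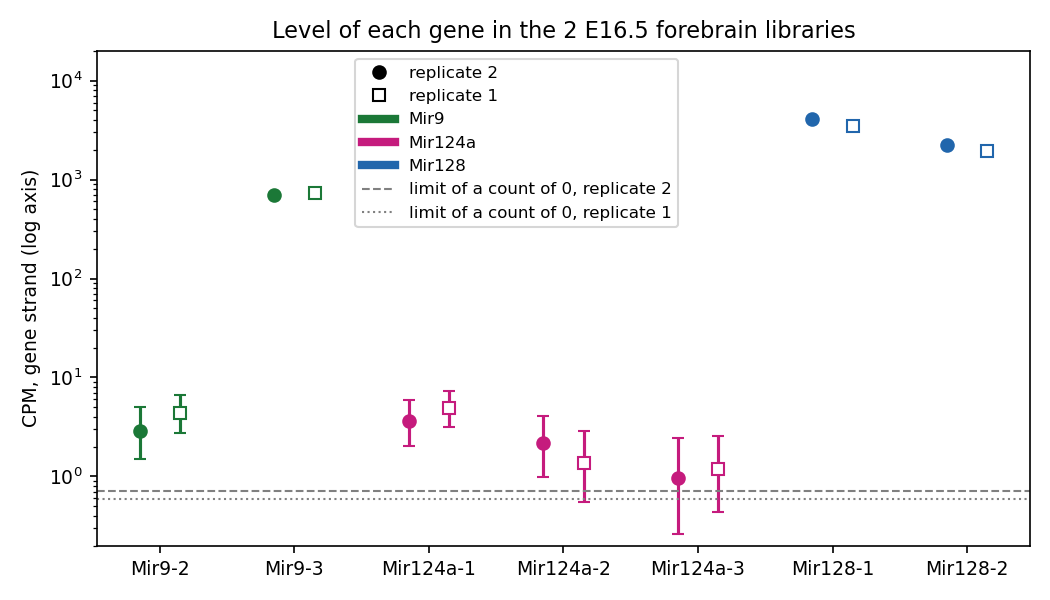
CPM on the gene strand (log axis) of each gene in replicate 2 (filled circles) and replicate 1 (open squares), coloured by family. Bars are exact Clopper-Pearson 95% intervals and cover counting error only; the lines mark the level that a count of 0 allows, 0.721 and 0.593 CPM. Mir128-1, Mir128-2 and Mir9-3 lie between 698 and 4125 CPM, and the other 4 genes between 0.962 and 4.94 CPM.

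Mir128-1 was the most abundant of the 7. It had 17155 counts in replicate 2 and 17686 in replicate 1, which is 4125 and 3495 CPM (exact Clopper-Pearson 95% intervals 4064 to 4187 and 3444 to 3547 CPM). Its mean of 3810 ± 445 CPM (SD, n = 2) ranked 45 among the 703 genes with a count. Mir128-2 had 9184 counts in replicate 2 and 9722 in replicate 1, or 2208 and 1921 CPM, and its mean of 2065 ± 203 CPM ranked 70. The Mir128-1 values lay above the Mir128-2 values in both libraries. Per kb of annotated gene, which takes the lengths of 70 and 76 bases into account, Mir128-1 averaged 54431 ± 6363 CPM per kb and Mir128-2 27169 ± 2671.

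The balance between the Mir128 copies was nearly constant. Mir128-1 held 65.1% of the 26339 Mir128 counts in replicate 2 (interval 64.6% to 65.7%) and 64.5% of 27408 in replicate 1 (64.0% to 65.1%). These intervals overlap, and a share within a family does not depend on how the libraries are scaled. The ratio of Mir128-1 to Mir128-2 counts was 1.87 in replicate 2 (1.82 to 1.92) and 1.82 in replicate 1 (1.77 to 1.86). Per kb, the ratios were 2.03 and 1.98.

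Mir9-3 was the third gene in order. It had 2901 counts in replicate 2 and 3727 in replicate 1, which is 698 CPM (672 to 723) and 737 CPM (713 to 761). Its mean of 717 ± 27.6 CPM ranked 99 of 703. Mir9-2, which encodes the same mature arms, had 12 counts in replicate 2 and 22 in replicate 1, or 2.89 CPM (1.49 to 5.04) and 4.35 CPM (2.72 to 6.58). Its mean of 3.62 ± 1.03 CPM ranked 350. The copies thus lay far apart in both libraries. Mir9-3 held 99.6% of the Mir9 counts in replicate 2 and 99.4% in replicate 1. Its counts were 242 times those of Mir9-2 in replicate 2 (138 to 468) and 169 times in replicate 1 (112 to 271), or 193 and 136 times per kb.

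Mir9-1 was not analysed here through a row of its own. The row of Gm25641 (ENSMUSG00000092876.1), at chr3:88215589-88215696 on the minus strand, spans Mir9-1, which lies at chr3:88215598-88215686 on the plus strand. On the Mir9-1 strand this row had 309 reads in replicate 2 and 550 in replicate 1, or 74.3 and 109 reads per 1000000 gene-strand counts, and on its own strand it had none. With those reads included, Mir9-3 held 90.0% of the placed reads of the 3 loci in replicate 2 and 86.7% in replicate 1. The reads on the Mir9-1 strand were 25.8 and 25.0 times the counts of Mir9-2. The order of the loci was therefore Mir9-3, Mir9-1, Mir9-2 in both libraries.

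The Mir124a genes were near the limit of detection. Mir124a-1 had 15 counts in replicate 2 and 25 in replicate 1, or 3.61 CPM (2.02 to 5.95) and 4.94 CPM (3.20 to 7.29). Mir124a-2 had 9 and 7 counts, or 2.16 CPM (0.990 to 4.11) and 1.38 CPM (0.556 to 2.85). Mir124a-3 had 4 and 6 counts, or 0.962 CPM (0.262 to 2.46) and 1.19 CPM (0.435 to 2.58). Mir124a-1 thus had more counts than its copies in both libraries, but the intervals of its counts over those of Mir124a-2 reached from 0.683 to 4.32 in replicate 2 and from 1.50 to 9.78 in replicate 1. Over Mir124a-3 the ratio was 3.75 in replicate 2 (1.19 to 15.5) and 4.17 in replicate 1 (1.67 to 12.4). Mir124a-3 is also the single gene of the 7 with more reads on the opposite strand, 6 in replicate 2 and 9 in replicate 1.

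By level per kb the order was Mir128-1, Mir128-2, Mir9-3, Mir124a-1, Mir9-2, Mir124a-2 and Mir124a-3, the same as by CPM. The values of neighbours down to Mir124a-1 did not overlap between the libraries. Mir9-3 averaged 7967 ± 306 CPM per kb, and Mir124a-1 and Mir9-2 averaged 50.3 ± 11.1 and 50.2 ± 14.4. In CPM the values of Mir124a-1 and Mir9-2 overlapped, with a gap of 0.657 CPM against a pooled SD of 1.40. The exact intervals of Mir9-2 and Mir124a-2, and those of Mir124a-2 and Mir124a-3, overlapped in each library. Among the 4 low genes the order of neighbours is therefore not resolved at this depth, whereas the count of Mir124a-1 over that of Mir124a-3 had intervals above 1 in both libraries. Per kb, the 7 genes had a median of 50.3 CPM per kb. The median was 11501 for 9 neural miRNA genes whose mature sequences come from a single locus. It was 33.2 for 83 other genes with a mature sequence at another locus. For the 466 genes tested, whose counts sum to 10 or more, it was 671. The list of 83 was not filtered by count: 31 of its genes were at 0 in both replicates, and 46 were tested. All of the 7 genes and of the 9 neural genes were tested. The 33.2 thus includes undetected genes, which the other medians do not, and is not directly comparable with them. The most abundant single-locus neural gene was Mir137, at 12348 ± 1260 CPM, and the least abundant was Mir212, at 44.2 ± 10.5 CPM. Among the other genes with a copy, Mir181a-1 was highest at 6954 ± 38.4 CPM.

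The sequence available to a uniquely placed read differed among the copies. For each arm, the strings of 20 to 24 bases that start within 2 bases of its annotated start were listed, 25 per arm, and searched on both strands of all other annotated miRNA loci. At Mir9-2 and Mir9-1, 0 of 50 such strings were without a match elsewhere. At Mir9-3, 16 of 50 were, 10 on the 5p arm and 6 on the 3p arm. At Mir128-1 and at Mir128-2, 40 of 50 were, namely all 25 on the 5p arm and 15 on the shared 3p arm. Loci outside the miRNA annotation were not searched.

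The number of added bases that makes an arm distinct shows the same contrast. The miR-128-3p arm was distinct with 1 base added at its 3′ end, at both loci. The miR-9-3p arm needed 2 added bases at Mir9-3 and 6 at Mir9-2 and Mir9-1. The miR-9-5p arm needed 4 added 3′ bases at each locus, but 1 added 5′ base was enough at Mir9-3, whereas Mir9-1 needed 8 and the Mir9-2 hairpin ended before any did. Over the whole hairpins, Mir9-2 and Mir9-3 were alike in 64 of 90 aligned columns (71.1%), and Mir128-1 and Mir128-2 in 55 of 77 (71.4%). The annotated Mir9-2 hairpin has only 72 bases, and columns without a Mir9-2 base count as unlike. The Mir128 hairpins, of 70 and 76 bases, are closer in length, so these percentages do not show equal divergence. The part of such sequence in the count differences between copies was not tested, and which arm or which end a counted read came from is not recorded in the tables.

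**Figure D2:**
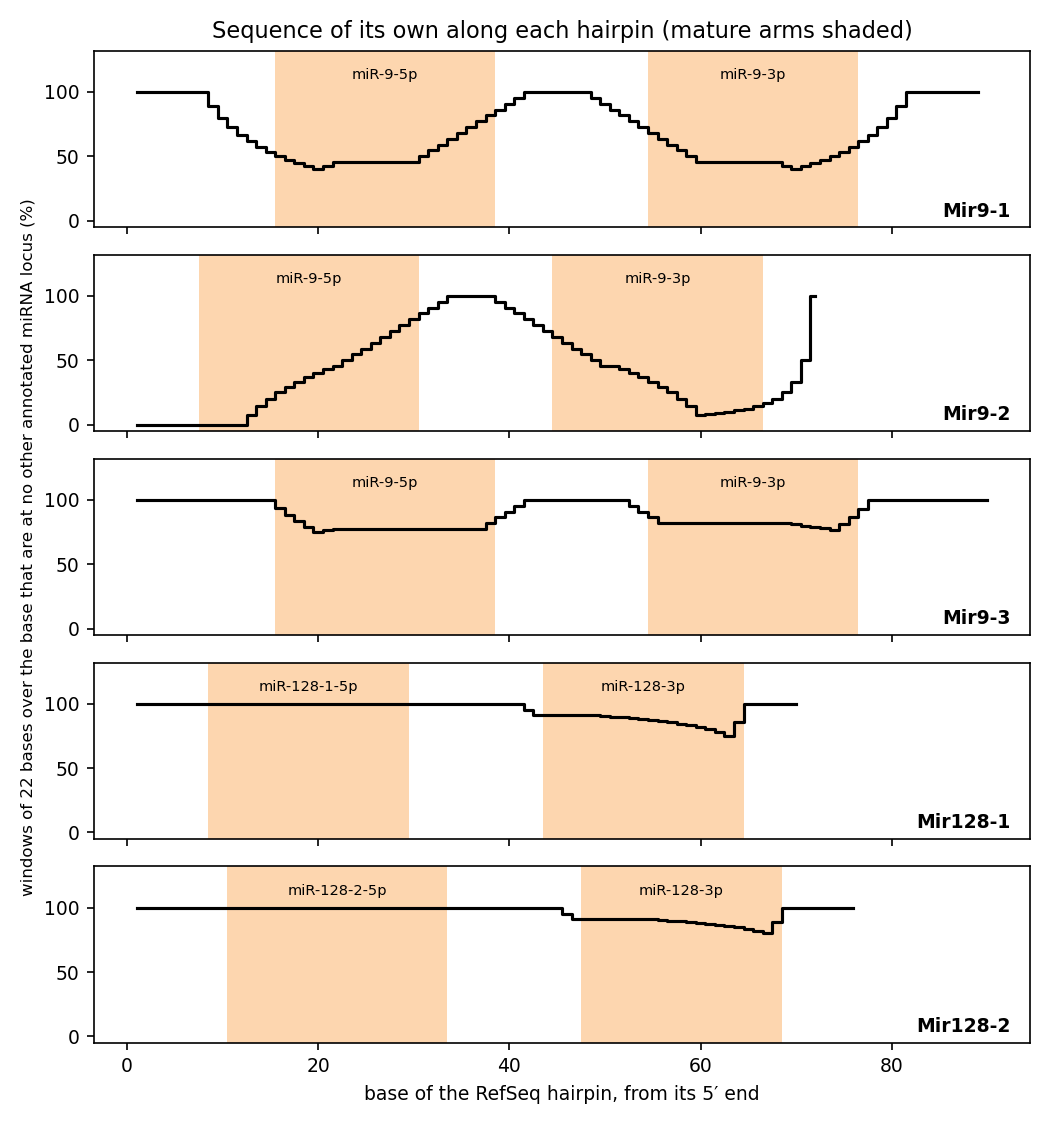
Percent of the windows of 22 bases over each base of a hairpin that occur at no other annotated miRNA locus, against the position from the 5′ end, with mature arms shaded. Over the arms the lowest value is 0% at Mir9-2, 40.0% at Mir9-1, 75.0% at Mir9-3 and at Mir128-1, and 80.0% at Mir128-2. Near the ends of a hairpin few windows exist, as at Mir9-2, whose RefSeq hairpin has 72 bases.

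Other genes with a shared mature sequence gave a frame for these differences. There were 22 sets of genes with rows here, linked by identical mature sequences and with at least 10 counts over the set in each library. In each, the highest copy was compared with the lowest per kb. The Mir124a genes, without a matched RefSeq sequence, are in none of these sets. The Mir9 set had the highest ratio of the 22, with that of Mir199b over Mir199a-1 known only as a lower bound, and the Mir128 set was number 14. In the 20 other sets the median ratio was 3.22, with a range of 1.10 to 106, where the ratio is the geometric mean of both libraries. Mir181b-2 over Mir181b-1, the next widest, gave 101 in replicate 2 and 112 in replicate 1. Both Mir181b copies had the same share of distinct strings, 56.0%. In 21 sets with sequences for both copies, that share was higher at the copy with more counts in 5 sets, equal in 15 and lower in 1. The Mir9 set is one of those 5 and the Mir128 set one of those 15. Strings that would run past the end of a hairpin were left out of the share. The Mir181b and Mir199b genes in the plot were chosen after their values were seen.

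**Figure D3:**
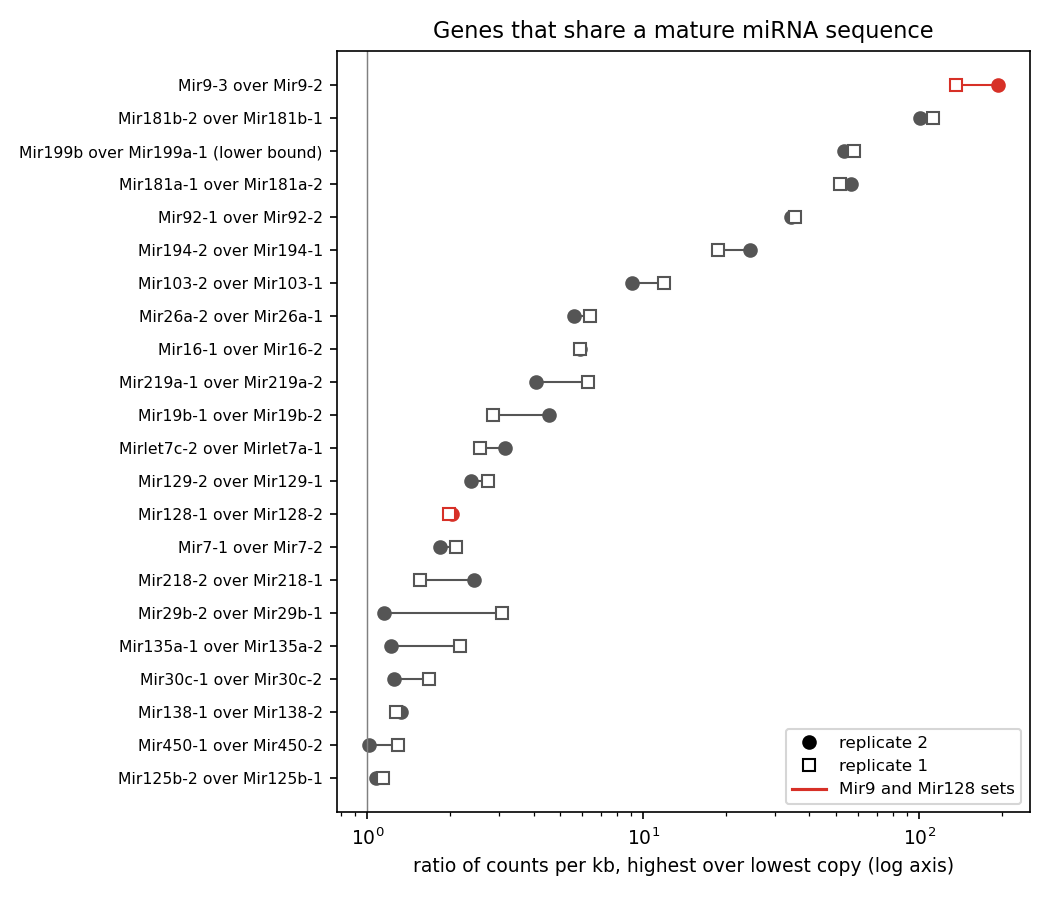
Ratio of counts per kb of the highest over the lowest copy (log axis) in 22 sets of genes that share a mature sequence, in replicate 2 (filled circles) and replicate 1 (open squares), with the Mir9 and Mir128 sets in red. Mir9-3 over Mir9-2 stands at 193 and 136, and Mir128-1 over Mir128-2 at 2.03 and 1.98. For Mir199b, where the lowest copy had 4 counts or none, the ratio in replicate 1 takes 3 counts for none and is a lower bound.

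When genes are grouped by whether their arms are shared, Mir9 falls in the smaller class. Of 555 genes here with 2 annotated arms, 16 had both arms in common with another locus and 52 had 1 such arm. The other 487 had none. The Mir124a genes, without a matched sequence, are not among the 555. Of the 16, 4 reached 5 counts in each library, and Mir9-3 and Mir9-2 were among these. The others were Mirlet7c-2 and Mir199a-2, named after their values were seen. Of the 52, to which Mir128-1 and Mir128-2 belong, 41 reached that level, and of the 487, 264 did.

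Between the libraries, both Mir128 genes were higher in replicate 2. The exact binomial test on TMM-scaled totals, adjusted by the Benjamini-Hochberg method over 466 genes, called 2 of the 7 genes, against 45.3% of all genes tested. Both calls were in the direction of replicate 2, as were 23.4% of all genes tested. Mir128-1 had a log2 ratio of replicate 2 over replicate 1 of 0.38 (exact interval 0.35 to 0.41, adjusted p = 1.21e-133, exact binomial test), and Mir128-2 one of 0.34 (0.30 to 0.39, adjusted p = 2.71e-59, exact binomial test). Of the 145 genes that reached 1000 counts in each library, 83.4% were called and the median absolute log2 ratio was 0.21, so a call at this depth is the usual case. With unscaled totals the same 2 of the 7 genes were called, against 47.6% of all genes tested. Reads were taken as independent, and variation between pools of embryos did not enter the test. In pooled tissue, fewer cells of a type and less RNA per cell cannot be told apart.

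Mir9-3 also reached 1000 counts in each library and was not called. Its log2 ratio was 0.07 (-0.0049 to 0.14, adjusted p = 0.131, exact binomial test), and the upper limit lies below the lower limits of both Mir128 genes. That interval covers counting error only. With unscaled totals its ratio was -0.08, so it has no settled direction. The low genes gave wide intervals. Mir9-2 had a log2 ratio of -0.42 (-1.60 to 0.63), Mir124a-1 of -0.29 (-1.34 to 0.67), Mir124a-2 of 0.77 (-0.80 to 2.45) and Mir124a-3 of -0.10 (-2.43 to 1.92). None of these was called, with adjusted p between 0.484 and 1 by the exact binomial test, and differences of up to several-fold would not have been detectable.

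**Figure D4:**
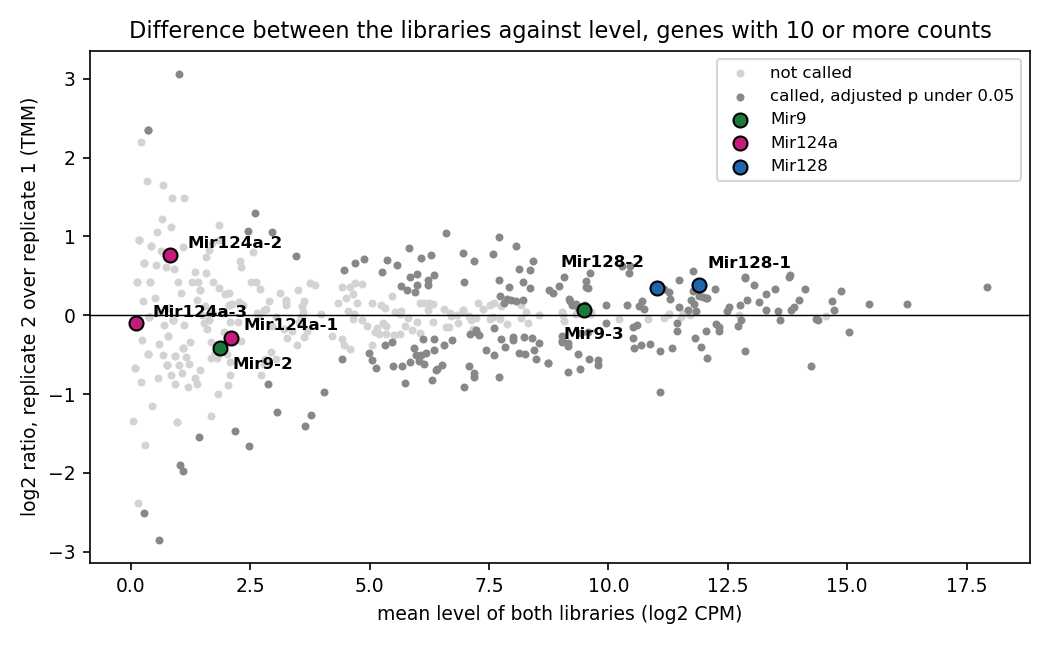
Log2 ratio of replicate 2 over replicate 1 after TMM scaling, against the mean level of both libraries (log2 CPM), for the 466 genes whose counts sum to 10 or more. Dark grey points were called by the exact binomial test, and the 7 genes are coloured by family. Mir128-1 and Mir128-2 lie at 0.38 and 0.34, Mir9-3 at 0.07, and the low genes within the wide spread at the left.

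Calls in the comparison lists were as follows. Of 83 other genes with a mature sequence at another locus, 46 were tested, 13 were higher in replicate 2 and 8 lower, with a median log2 ratio of 0.05. Of the 9 single-locus neural genes, 1 was higher in replicate 2 and 7 were lower, against 21.9% of all genes tested that were lower. Their median was -0.22, while the median over all genes tested was 0.01. That 21.9% is not matched for depth. Mir137, Mir132, Mir153, Mir92b and Mir139 reached 1000 counts in each library, and 83.4% of all genes at that depth were called in either direction. The neural markers Mir137, Mir92b, Mir132 and Mir153 had 1 gene higher and 3 lower, but all are among those 9 genes and were already counted. Endothelial Mir126a was higher, with a log2 ratio of 0.34. The other markers of non-neural cells went both ways. Mir144 (0.86), Mir223 (0.79) and Mir206 (0.57) were called higher in replicate 2. Mir451a (-0.50), Mir122 (-0.45) and Mir208b (-0.97) were called lower, and Mir208a (-0.63) was not called. The part of such differences in the Mir128 ratios was not tested.

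Genes closest in level to the abundant members were found by the distance of log2 CPM over the 2 libraries, among 270 genes with at least 100 counts in each. Mir467d, of the Sfmbt2 intron cluster, had 681 CPM in replicate 2 and 730 CPM in replicate 1, and Mir501 had 724 and 734 CPM, at distances of 0.04 and 0.05 from Mir9-3. Mir21a, with 3920 and 3669 CPM, and Mir92b, with 4140 and 3911 CPM, were nearest to Mir128-1 at 0.10 and 0.16. Mir92-1, with 2444 and 2140 CPM, and Mir301, with 2150 and 2442 CPM, were nearest to Mir128-2 at 0.21 and 0.35. With 2 samples, this likeness is one of level and of a single ratio.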

How the data were processed

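MicroRNA-seq of 2 forebrain libraries was deposited as 1 table of raw read counts per gene and library, and per the labels and the deposited file descriptions the assembly was mm10 with GENCODE M4. The authors' counts come in 3 columns, without regard to strand and for each strand. How reads were trimmed, aligned and counted is not given in the sources used here. All 4 rows of unassigned reads stayed out of totals; reads mapping to several loci were 43.3% of all reads in replicate 2 and 40.5% in replicate 1. The same stranded column was used as the gene strand for every gene, and it is the one with more counts summed over all genes. Symbols and positions came from GENCODE M21 by identifier without its version (1894 of 1973 matched), and sequences from RefSeq on GRCm38.p6 (869 rows with a hairpin).

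CPM, mean ± SD and exact Clopper-Pearson intervals at 95% were computed. These cover counting error only. Genes whose counts sum to 10 or more entered a two-sided exact binomial test of both counts given their sum, with totals scaled by TMM (edgeR 4.0.16, R 4.3.3), Benjamini-Hochberg adjustment and a threshold of 0.05. Log2 ratios add 0.5 to each count. DESeq2 1.42.0 size factors, unscaled totals, unstranded counts and other filters were alternatives. The quasi-likelihood test needs a second group. The labels give separate biosample records, and p-values compare libraries only. The test was checked on simulated data. Those data held counting error only, so the check does not cover variation between pools of embryos. Hairpins were aligned with Biopython 1.88. The members and lists were chosen with earlier results of these data known. Named genes are the 7 members, the row opposite Mir9-1, genes with the same seed (none outside the miR-9 and miR-128 loci), the 2 genes nearest in level to each member with at least 100 counts, and the highest and lowest gene of each comparison list; Mir27a, Mir27b and Mir216a were added for the offset seed, and others are stated as chosen later.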

Additional observations from a re-analysis of the deposited data

Results flagged for a closer look

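These values lie outside the gene-strand counts and exceed the limit of 3 counts that a count of 0 allows. On the strand opposite to Mir124a-3, 6 reads were counted in replicate 2 and 9 in replicate 1, more than its gene-strand counts of 4 and 6. On the strand of Mir9-1, the row of Gm25641 held 309 reads in replicate 2 and 550 in replicate 1. Reads that map to several loci numbered 4752799 in replicate 2 and 5506866 in replicate 1.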

How the results depend on the processing

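No paired analysis was possible because the series has 1 group. The 2 calls of Mir128 genes and the 5 genes not called held under unscaled totals, DESeq2 size factors, unstranded counts and 1 in place of 0.5 added to each count. The one reversal was Mir9-3, whose log2 ratio was -0.0784 with unscaled totals (adjusted p = 0.0594, exact binomial test). All genes shifted by -0.14 with unscaled totals, where of 222 calls 67 had the higher level in replicate 2 and 155 the lower, against 109 and 102 with TMM. The number of genes called, 211, ranged from 204 to 225. Per 1000000 of all reads, multimapping and unassigned ones included, the levels were 1432 for Mir128-1, 776 for Mir128-2, 269 for Mir9-3, 1.36 for Mir9-2, 1.60 for Mir124a-1, 0.668 for Mir124a-2 and 0.403 for Mir124a-3. With Mir99a, the most abundant gene, left out of the totals, they were 5091, 2758, 956, 4.80, 5.68, 2.38 and 1.43 CPM in the same order. With unstranded counts, Mir124a-3 was at 2.64 CPM and its share of the Mir124a counts at 30.3%, against 15.0% by gene strand, and the share of Mir124a-1 was 48.1% against 59.7%. The share of Mir9-2 bases in windows found once, 83.3% with 22 bases, was 77.8% with 18 and 88.9% with 26. Leaving out 1 library gives the value of the other, and these are the values per library in the report. Depth limits Mir9-2 and the Mir124a genes, with 4 to 25 counts each.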
